A study of Mus musculus with 29 samples.

Results

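Periostin (Postn), tenascin C (Tnc), thrombospondins 1 and 2 (Thbs1, Thbs2), fibulin 1 (Fbln1), fibronectin (Fn1), Svep1, Lrrc15, Thy1 and Lsp1 were followed in cultured stromal vascular cells from 2 white fat depots of the mouse. These 10 genes were chosen by name, as matricellular and activated fibroblast genes, from the 56953 features of the count table. The choice was made with earlier depot and sex results of the same libraries in view. Their differences in those comparisons are therefore descriptions, and the number of them called supports nothing on its own. All 10 were among the 8853 genes that passed the filter on low counts. Lrrc15 did so through its counts in female iWAT.

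Crude stromal vascular fraction (SVF), the cells left once adipocytes are floated off digested fat, was prepared from adult C57BL6/J mice, either from the inguinal depot (iWAT) or from the perigonadal one (pgWAT). No cell type was sorted out, every culture received 1 nM bFGF, and RNA was taken after 4 days, without an adipogenic cocktail. By label the bulk Smart-seq3 libraries comprised 10 of male iWAT, 9 of female iWAT, 4 of male pgWAT and 6 of female pgWAT. The study's methods list other group sizes, with male pgWAT the larger pgWAT group, and the labels were followed here. The libraries are technical replicate wells, from 3 separate experiments for iWAT and 2 for pgWAT. The labels do not say which wells share an experiment, so every error and FDR below measures spread between wells, not between experiments or animals. Library totals ran from 315316 to 1102234 counts, and 3 counts correspond to 2.64 to 9.996 CPM, where CPM is the count relative to the effective library size, scaled to 1e+06.

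The sex labels were checked against Xist, transcribed from the inactive X chromosome, and 4 Y-linked genes (Ddx3y, Eif2s3y, Uty, Kdm5d). All 19 iWAT libraries matched. In pgWAT 5 of 10 matched. The libraries labelled male 2, male 4, female 2 and female 3 went against their labels, and female 1 held both Xist and Y-linked counts. The study's methods report low Ddx3y and Eif2s3y counts, below 10, in female pgWAT cultures. They read these as slight contamination that most likely left the study's conclusions unaffected. Depot differences pool both labelled sexes, whereas every statement on sex within pgWAT rests on labels that fail this check for several libraries. Counts of called genes that use these labels are given with and without these 5 libraries, and single values for some genes only. Fibroblast markers (Pdgfra, Col1a1, Col3a1, Dcn, Lum) were detected in every group, with a summed level of 3132 to 8327 CPM in iWAT and 4657 to 15569 CPM in pgWAT. In bulk RNA of a mixed culture, fewer cells of a type and less RNA per cell cannot be told apart.

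Matricellular proteins are secreted into the extracellular matrix, where they act less as scaffold than as modulators of how cells bind matrix and receive growth factors. Periostin, tenascin C and the thrombospondins are low in many resting adult tissues and are produced by fibroblasts in wounds, fibrosis and tumours. They are read by integrins, syndecans, CD36 and CD47 on the cell surface, and several of them act on the release or activity of TGF-beta. In white fat the stromal fibroblasts that make this matrix include the progenitors of adipocytes.

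The regions just upstream of 4 genes are shown because these genes carried the largest depot differences or the separation of male from female iWAT. RefSeq promoter entries (GRCm38.p6) were found for 6 of the 10 genes: Postn, Lrrc15, Tnc, Fbln1, Svep1 and Thbs2. For genes with more than 1 entry, the entry whose start lay within 20 bases of the most GENCODE transcript starts was taken. Each run holds the 250 bases before the annotated start, 5′ to 3′ on the gene's strand. Capitals mark matches, on either strand, to the core promoter box TATAAA, the AP-1 motif TGANTCA, the TEAD motif CATTCC or the Sp1 motif GGGCGG.
Postn, chr3:54360857-54361106, plus strand: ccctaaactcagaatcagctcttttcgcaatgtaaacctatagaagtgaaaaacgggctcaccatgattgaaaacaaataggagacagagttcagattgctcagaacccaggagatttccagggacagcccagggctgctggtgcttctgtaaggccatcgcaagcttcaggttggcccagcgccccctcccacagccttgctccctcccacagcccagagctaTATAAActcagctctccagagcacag
Tnc, chr4:64047016-64047265, minus strand: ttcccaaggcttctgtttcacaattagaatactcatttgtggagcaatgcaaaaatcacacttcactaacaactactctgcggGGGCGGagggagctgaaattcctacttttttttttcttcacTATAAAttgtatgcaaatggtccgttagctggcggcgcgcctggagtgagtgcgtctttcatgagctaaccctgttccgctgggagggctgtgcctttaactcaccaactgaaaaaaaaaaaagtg
Lrrc15, chr16:30283255-30283504, minus strand: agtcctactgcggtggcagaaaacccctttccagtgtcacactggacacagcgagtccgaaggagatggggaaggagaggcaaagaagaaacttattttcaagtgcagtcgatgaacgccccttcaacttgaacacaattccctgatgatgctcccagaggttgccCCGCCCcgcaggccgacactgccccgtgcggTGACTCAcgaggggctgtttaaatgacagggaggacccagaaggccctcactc
Svep1, chr4:58206597-58206846, minus strand: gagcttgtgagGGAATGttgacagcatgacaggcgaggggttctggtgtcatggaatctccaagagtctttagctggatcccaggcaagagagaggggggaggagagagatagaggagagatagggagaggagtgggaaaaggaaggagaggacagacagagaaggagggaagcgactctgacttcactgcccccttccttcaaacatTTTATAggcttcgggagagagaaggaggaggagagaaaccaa
The Postn window held TATAAA 26 bases before the start, and the Svep1 window held it at 42 bases with CATTCC at 239 bases. The Tnc window held TATAAA at 126 bases and GGGCGG at 167 bases. Lrrc15 had no TATAAA, and held TGANTCA at 53 bases and GGGCGG at 84 bases. Of 32851 promoter entries of the same length, 12.4% held TATAAA, 6.75% TGANTCA, 12.6% CATTCC and 32.7% GGGCGG, and no overlap between these motifs occurred in the 4 windows. The letters describe the windows and show no binding.

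Per kilobase of annotated exon, the 10 genes spanned a wide range of levels in iWAT. Thbs2 led in both sexes, at 723 ± 95.3 CPM per kb in males (SD, n = 10) and 756 ± 80.7 in females (SD, n = 9). In males Fn1 (360.1 ± 70.7 CPM per kb) came before Thy1 (266 ± 26.1), and in females Thy1 (547 ± 86.6) before Fn1 (320.4 ± 36.1). Next were Thbs1 (107 ± 14.8 in males, 155 ± 69.2 in females) and Tnc (81.6 ± 11.2 and 187 ± 49.3), whose spreads met in each sex. Lsp1 (22.9 ± 7.66 and 65.4 ± 19.1) and Postn (8.31 ± 4.94 and 36.1 ± 7.52) were lower. Fbln1 (5.19 ± 1.74 and 6.85 ± 2.58) and Svep1 (3.20 ± 0.410 and 2.81 ± 1.08) were low in both sexes. Lrrc15 came last in males, at 1.67 ± 1.25 CPM per kb, and stood above Fbln1 in females, at 15.04 ± 2.63. In pgWAT the place of Thbs2 depended on the library. It lay at 149 to 197 CPM per kb in 4 libraries, where Fn1 was at 625.1 to 780.3, and at 1218 to 1872 CPM per kb in the other 6, where Fn1 was at 319 to 537. Over all 10 Fn1 stood at 530 ± 167 CPM per kb (SD, n = 10), Thbs1 at 288 ± 139, Thy1 at 179 ± 57.1 and Postn at 59.2 ± 28.9. Tnc dropped to 14.7 ± 6.74 CPM per kb, within the spread of Fbln1 (18.1 ± 8.11) and Svep1 (20.5 ± 7.06), and Lrrc15 was at 0.612 ± 0.629 CPM per kb.

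Between depots, 8 of the 10 genes were called at a false discovery rate (FDR) below 0.05 by edgeR's quasi-likelihood test over all genes, beside 38.1% of all genes tested. Postn, Svep1, Fbln1, Thbs1 and Fn1 were higher in pgWAT, where 20.1% of all genes were called higher. Tnc, Lrrc15 and Thy1 were lower, where 17.9% of all genes were called lower. Lsp1 and Thbs2 were not called. The median log2 fold change of the 10 genes was 0.48, against 0.01 over all genes tested. Groups did not overlap for Tnc and Svep1, which is 2 of 10 genes beside 2.12% of all genes tested. Leaving out any of the 29 libraries left 8 genes called. Leaving out the 5 pgWAT libraries with doubtful labels gave 9, beside 23.7% of all genes, the additional one being Thbs2. Markers of other cells moved with depot. Among mesothelial genes, Msln, Upk3b, Lrrn4 and Wt1 summed to 0 to 6.31 CPM in iWAT, with Lrrn4 at 0 in every library, and to 44.4 to 143 CPM in pgWAT. The smooth muscle genes Acta2, Tagln, Myh11 and Mylk summed to 598 to 3611 CPM in iWAT and 1370.3 to 3206 CPM in pgWAT, and all 3 that could be tested were called higher in pgWAT. The macrophage genes Cd68, Cd14, Cd163 and Adgre1 summed to 64.8 to 246 CPM and 92.1 to 756 CPM, with 1 of 3 tested called higher. Endothelial markers summed to 24.4 to 90.4 CPM and 36.8 to 102 CPM, also with 1 of 3 called higher, and 4 of the 5 fibroblast markers were called higher. Their part in the depot differences was not tested.

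**Figure D1:**
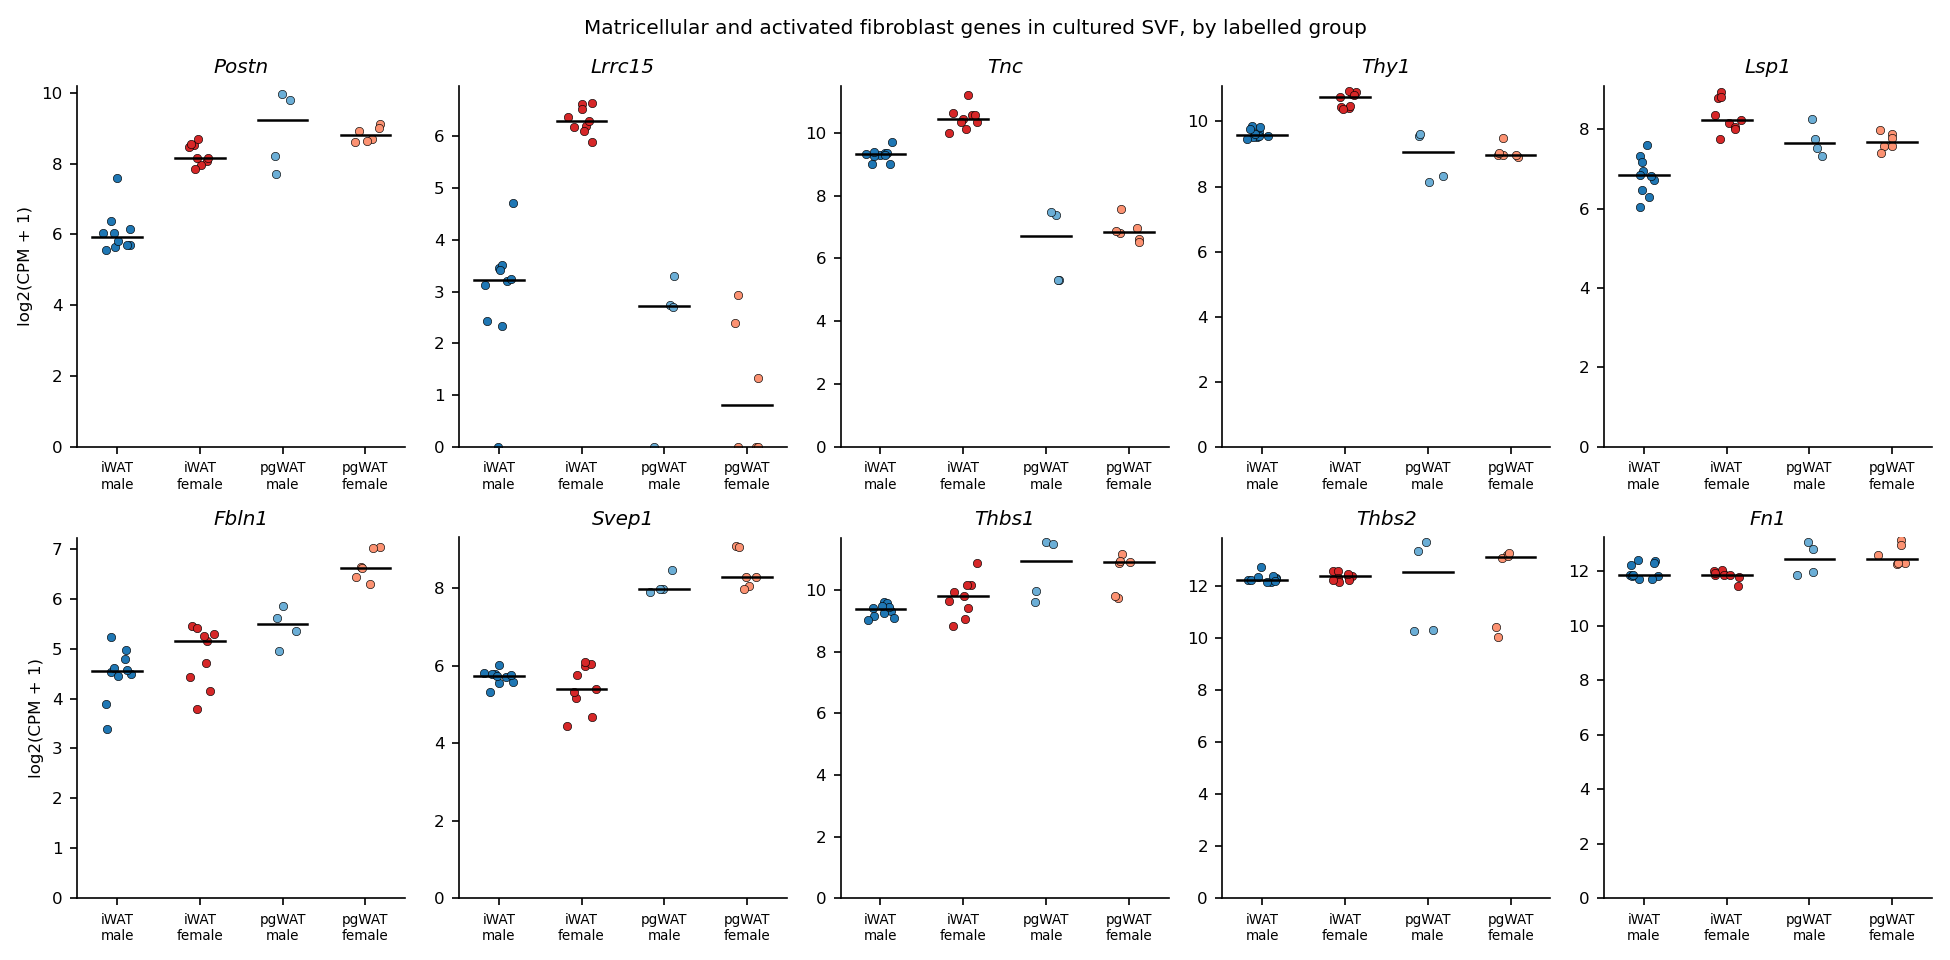
Level of each gene as log2(CPM + 1) in every library, by depot and labelled sex, with a bar at the group median. Male and female iWAT separate for the 5 genes of the upper row, and Thbs2 in pgWAT falls into 2 sets of values on either side of iWAT.

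Tnc encodes tenascin C, a hexameric glycoprotein that weakens cell adhesion to fibronectin (ENSMUSG00000028364.16, chromosome 4). Male iWAT held 510 to 826 CPM with a median of 638, and female iWAT 1013 to 2342 CPM with a median of 1392. The male-labelled pgWAT libraries 1 to 4 held 39.1, 167, 38.4 and 176 CPM, and female-labelled pgWAT ranged from 90.0 to 190 CPM with a median of 113. Every pgWAT library lay below every iWAT library, and within iWAT every male library lay below every female one. The depot difference was -3.09 ± 0.20 on the log2 scale (pgWAT minus iWAT, ± SE), an 8.51-fold lower level in pgWAT. The antisense gene 8030451A03Rik, which overlaps Tnc exons, had 9 counts in all libraries together against 13616 for Tnc.

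Svep1, a large secreted protein of complement control and pentraxin domains that binds integrin α9, showed the converse (ENSMUSG00000028369.16, chromosome 4). It held 38.9 to 64.0 CPM in male iWAT (median 52.5) and 20.6 to 67.1 CPM in female iWAT (median 40.9). The male-labelled pgWAT libraries held 352, 239, 252 and 250 CPM in order of replicate number, and the female-labelled ones 251 to 538 CPM with a median of 312. Its depot difference was 2.704 ± 0.15 on the log2 scale, 6.52-fold higher in pgWAT with no overlap between depots. Over all iWAT libraries the sexes overlapped (0.20 ± 0.20, male minus female). Within plate column 7 males held 38.9 to 64.0 CPM and females 20.6 to 39.0 CPM. Over the alternative settings (edgeR, DESeq2 or limma-voom) the difference ran from 0.18 to 0.78. It was never called, but its lowest FDR there, 0.0527, was near the threshold.

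Postn encodes periostin, which binds collagen and αv integrins (ENSMUSG00000027750.17, chromosome 3). Male iWAT held 46.5 to 191 CPM with a median of 59.9, and female iWAT 230 to 417 CPM with a median of 282. In pgWAT the libraries labelled male held 295, 895, 206 and 1002 CPM, and the female-labelled ones 390 to 554 CPM with a median of 449. Every male iWAT library lay below every library of the other groups. The depot difference was 3.04 ± 0.29 on the log2 scale within the labelled males, 8.20-fold, and 0.54 ± 0.26 within the labelled females, where Postn was not called. Over both it was 1.79 ± 0.20. The highest pgWAT libraries, labelled male 2 and 4, are among those that go against their labels. Without the 5 doubtful libraries the difference was 1.75 within labelled males and 1.09 over both, each still called.

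Lrrc15 is a leucine-rich repeat membrane protein known from activated and tumour-associated fibroblasts (ENSMUSG00000052316.10, chromosome 16). It was essentially a transcript of female iWAT, with 58.0 to 98.9 CPM and a median of 78.1. Male iWAT held 0 to 25.3 CPM with a median of 8.38, and 1 of its 10 libraries had no count. Counts were few in male-labelled pgWAT, which held 0, 8.86, 5.68 and 5.49 CPM. The female-labelled pgWAT libraries held 0 to 6.67 CPM, with 7 counts in all 6 together and no count in 3 of them. The log2 depot difference was -4.90 ± 0.45 within labelled females, 29.9-fold lower, and -0.78 ± 0.52 within labelled males, not called. The pgWAT side of these values rests on 21 counts in 10 libraries, and 4 of the 10 had none.

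Thy1, the glycophosphatidylinositol-anchored surface protein CD90 that marks many fibroblasts and mesenchymal cells, was lower in pgWAT (ENSMUSG00000032011.6, chromosome 9). Male iWAT held 701 to 922 CPM (median 763) and female iWAT 1336 to 1976 CPM (median 1713). Among pgWAT libraries, those labelled male held 279, 751, 317 and 785 CPM, and the female-labelled ones 475 to 718 CPM (median 502). Female iWAT stood above every other library, and male iWAT overlapped pgWAT. The depot difference was -1.09 ± 0.13 on the log2 scale, with -1.61 ± 0.17 within labelled females and -0.57 ± 0.19 within labelled males. The value in labelled males was no longer called without male-labelled pgWAT library 1 (-0.37) or 3 (-0.40), and was -1.44 without the 5 doubtful libraries.

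Lsp1, an F-actin binding protein first described in leukocytes, had opposite depot differences in the labelled sexes (ENSMUSG00000018819.11, chromosome 7). Male iWAT held 64.9 to 196 CPM (median 114) and female iWAT 215 to 494 CPM (median 303). For pgWAT, labelled males held 185, 308, 161 and 215 CPM, and the female-labelled ones 170 to 251 CPM (median 205). The pgWAT libraries sat between male and female iWAT, overlapping both. Its log2 depot difference was 0.85 ± 0.22 within labelled males and -0.70 ± 0.20 within labelled females, both called, with 0.07 ± 0.15 over both. The male call was lost without male-labelled pgWAT library 2 (0.64) and without the 5 doubtful libraries (0.49), and the female call with plate column as a factor (-0.41). The leukocyte markers Ptprc, Cd3e, Cd3d, Cd79a and Coro1a summed to 6.38 to 51.8 CPM in male iWAT and 10.1 to 30.1 CPM in female iWAT. The part of leukocytes in the level of Lsp1 was not tested.

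Fbln1 encodes fibulin 1, a calcium-binding glycoprotein of basement membranes and elastic fibres (ENSMUSG00000006369.15, chromosome 15). It was at 9.44 to 36.3 CPM in male iWAT (median 22.3) and 12.9 to 42.7 CPM in female iWAT (median 34.4). Labelled males of pgWAT held 56.9, 47.8, 29.8 and 39.5 CPM, and the female-labelled ones 77.5 to 131 CPM (median 97.2). All 6 female-labelled pgWAT libraries were above every other library. The depot difference was 1.35 ± 0.17 on the log2 scale, 2.55-fold higher in pgWAT. It was 1.74 ± 0.22 within labelled females and 0.96 ± 0.27 within labelled males, where the call was lost without male-labelled library 1 (0.80), without the 5 doubtful libraries (0.92) and in plate column 9 alone (0.87).

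Fn1 encodes fibronectin, the adhesive glycoprotein on which fibroblasts assemble matrix (ENSMUSG00000026193.16, chromosome 1). Male iWAT held 3395 to 5396 CPM (median 3718) and female iWAT 2801 to 4199 CPM (median 3745). In male-labelled pgWAT it was at 8629, 3730, 7304 and 3971 CPM, and the female-labelled ones 4944 to 9118 CPM (median 5661). Apol7d, antisense to Fn1 exons, had 2 counts in all. The depot difference was 0.63 ± 0.12 on the log2 scale, 1.55-fold, and the depots overlapped.

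Thbs1 encodes thrombospondin 1, a trimeric ligand of CD36 and CD47 that can activate latent TGF-beta (ENSMUSG00000040152.9, chromosome 2). Male iWAT held 524 to 784 CPM (median 660) and female iWAT 451 to 1859 CPM (median 892). The male-labelled pgWAT libraries held 999, 3026, 789 and 2904 CPM, and the female-labelled ones 845 to 2298 CPM (median 1901). The depot difference was 1.18 ± 0.19 on the log2 scale, 2.27-fold. It was 1.56 ± 0.28 within labelled males and 0.80 ± 0.26 within labelled females, both called. The male call was lost without the 5 doubtful libraries (0.43), and the female call without pgWAT female-labelled library 1 (0.68), 5 (0.74) or 6 (0.74).

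Thbs2 encodes thrombospondin 2, which shares the trimeric form of thrombospondin 1 and limits collagen fibril width and matrix metalloprotease 2 (ENSMUSG00000023885.10, chromosome 17). Over both sexes of iWAT pooled, its SD was the smallest of the 10 genes relative to its mean. In iWAT it held 4552 to 6834 CPM in males (median 4838) and 4526 to 6113 CPM in females (median 5301). In pgWAT no library fell in that range. The male-labelled pgWAT libraries held 1220, 13113, 1260 and 10498 CPM. The female-labelled pgWAT libraries 1 to 6 held 9322, 1381, 1045, 8531, 9112 and 9820 CPM. The depot difference, 0.33 ± 0.29 on the log2 scale, was the mean of libraries far above and far below iWAT and was not called.

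**Figure D2:**
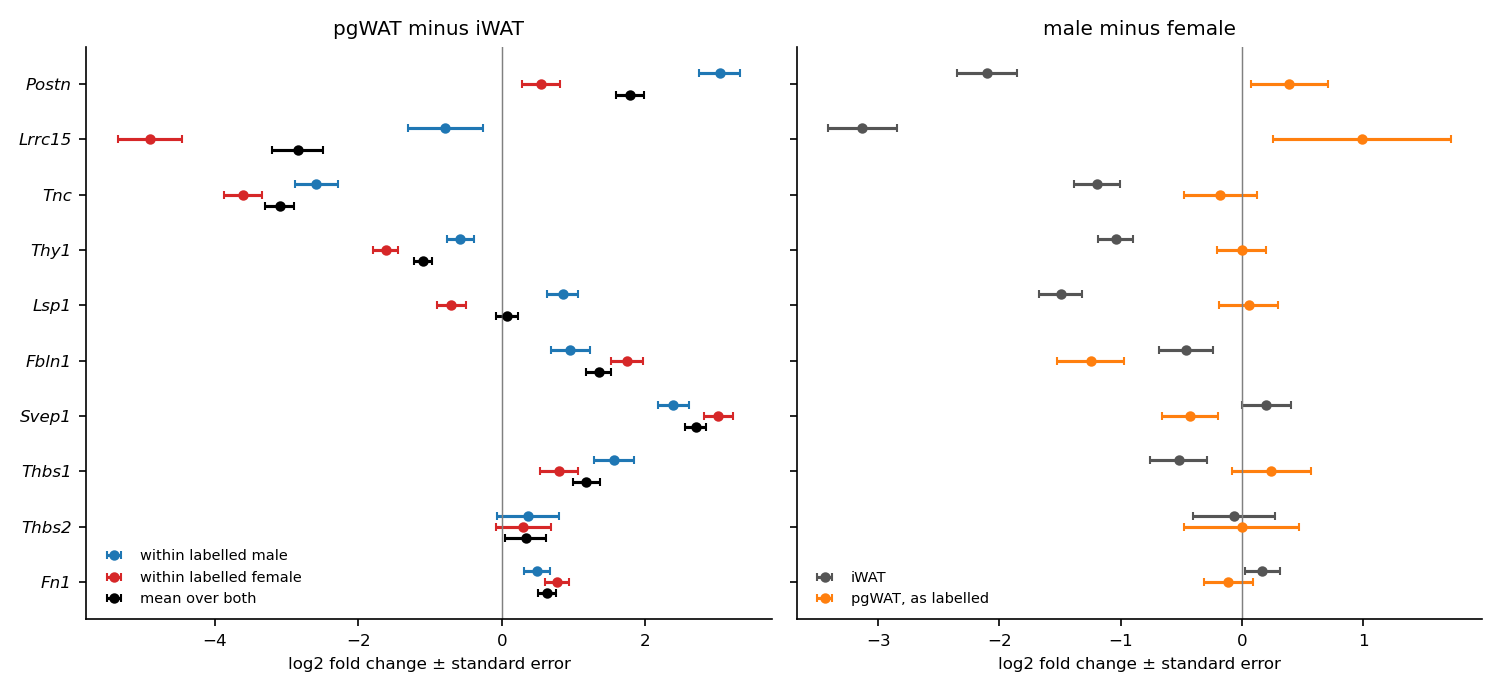
Log2 fold change ± SE of the 10 genes, pgWAT minus iWAT at left (within each labelled sex and over both) and male minus female at right (iWAT, and pgWAT as labelled). Postn, Lrrc15 and Lsp1 show the widest gap between the labelled sexes at left, and Svep1 and Tnc the largest differences of like sign in both.

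Within the labelled males 7 of the 10 genes were called between depots, beside 20.3% of all genes, and within the labelled females 8, beside 26.8%. Both comparisons share the pgWAT labels that the sex-linked genes put in doubt. Without the 5 doubtful libraries 6 genes were called within labelled males, beside 9.16% of all genes. Fbln1, Lsp1 and Thbs1 were no longer among them, Fn1 (0.90) was added, and Thbs2 turned to -2.06 and was called. Tnc differed there by -4.05, against -2.58 ± 0.29 with all libraries. Within labelled females 9 genes were then called, beside 18.3%, the additional one being Thbs2 (0.78).

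In iWAT, where all labels matched, 5 of the 10 genes were called between the sexes, beside 3.22% of all genes tested. All 5 were lower in males (Postn, Lrrc15, Tnc, Thy1, Lsp1), a direction called for 2.13% of all genes, and for each of them male and female libraries did not overlap, beside 0.52% of all genes. On the log2 scale, male minus female, Lrrc15 differed by -3.13 ± 0.28, Postn by -2.10 ± 0.25, Lsp1 by -1.50 ± 0.17, Tnc by -1.20 ± 0.19 and Thy1 by -1.04 ± 0.14. These correspond to levels 8.76-, 4.29-, 2.82-, 2.29- and 2.06-fold lower in males. Thbs1 (-0.52 ± 0.23), Fbln1 (-0.46 ± 0.22), Svep1 (0.20 ± 0.20), Fn1 (0.17 ± 0.14) and Thbs2 (-0.06 ± 0.34) were not called. The same 5 genes were called whichever library was left out.

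The library names give plate positions, and whether a plate column was a batch is not stated. Column 7 held 7 male and 4 female iWAT libraries. In that column alone, the 5 genes were called again together with Thbs1 (-0.61), 6 of 10 beside 3.05% of all genes. With plate column as a factor over all libraries the same 6 were called, beside 5.6% of all genes, and Thbs1 stood at -0.80. Within column 7 Lrrc15 ranged from 0 to 25.3 CPM in males and 68.3 to 82.5 CPM in females. Thy1 ranged there from 742 to 922 CPM in males and from 1336 to 1409 CPM in females, while the 3 female libraries of column 8 held 1808 to 1976 CPM.

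Sums of markers of other cells differed between the sexes of iWAT, but not every gene in them did. The epithelial genes Epcam, Krt8, Krt18 and Krt19 summed to 2.00 to 57.5 CPM in males, with Epcam at 0 in every male library, and to 41.7 to 1483 CPM in females. Of these, 2 of 3 tested were called lower in males, and Krt19 was not called. The smooth muscle genes Acta2, Tagln, Myh11 and Mylk summed to 598 to 856 CPM in males and 855 to 3611 CPM in females. Most of that sum was Acta2 and Tagln, both called lower in males. Mylk, the other gene tested, went the other way (0.74 ± 0.38 on the log2 scale, male minus female, not called). The sum of the macrophage genes (Cd68, Cd14, Cd163, Adgre1) was higher in males, with 115 to 246 CPM against 64.8 to 151 CPM in females. Of the 3 tested, 0 were called. The fibroblast sum was 3132 to 5738 CPM in males and 4165 to 8327 CPM in females, with 2 of 5 genes called lower in males. The part of any of these in the sex differences was not tested. Female library 9 held the highest epithelial (1483 CPM) and smooth muscle (3611 CPM) sums and also the highest Tnc and Thbs1, and the 5 calls remained without it.

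As labelled, the sexes of pgWAT gave no called gene among the 10 by edgeR, beside 0.0113% of all genes, with 739 genes at an unadjusted p below 0.05. Fbln1 had the largest difference, -1.25 ± 0.27 on the log2 scale, with labelled males entirely below labelled females. It was called by DESeq2 (-1.26), by limma-voom (-1.26) and without the filter on low counts (-1.22). The difference between the sex contrasts of pgWAT and iWAT was called for Postn (2.49 ± 0.40), Lrrc15 (4.12 ± 0.82) and Lsp1 (1.55 ± 0.30), 3 of 10 genes beside 0.181% of all genes. Lrrc15 was not called there by limma-voom (4.05).

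These values changed once the 5 doubtful libraries were left out, which leaves 2 male-labelled (1 and 3) and 3 female-labelled (4, 5 and 6) pgWAT libraries. Of the 10 genes 5 were then called between the sexes of pgWAT, beside 5.63% of all genes. Thbs2 (-2.91), Tnc (-1.42), Thbs1 (-1.13) and Thy1 (-0.78) were lower in males and Fn1 (0.65) was higher, on the log2 scale. Fbln1 was not among them. The difference between the sex contrasts was called for Lsp1 and Thbs2 (-2.84), 2 of 10 genes beside 2.56% of all genes, and not for Postn (1.31) or Lrrc15 (3.48). The depot difference of Thbs2 turned to -0.64 and was called.

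The 4 pgWAT libraries with the lowest Thbs2 were those labelled male 1, male 3, female 2 and female 3, at 1045 to 1381 CPM. They had 34, 32, 23 and 26 Y-linked counts and no Xist count. Male-labelled 2 and 4 and female-labelled 4, 5 and 6 had 24, 60, 57, 58 and 22 Xist counts and at most 1 Y-linked count, with 8531 to 13113 CPM of Thbs2. Female-labelled 1 carried both, 7 Xist and 10 Y-linked counts, and held 9322 CPM. The 4 libraries lowest in Thbs2 were also lowest in Thbs1, at 789 to 999 CPM against 1879 to 3026 CPM in the other 6. They were highest in Fn1, at 7304 to 9118 CPM against 3730 to 6274 CPM. Female-labelled library 1 was the highest of those 6 for Fn1. The ratio of Thbs2 to Thbs1 was 3.02 to 10.6 in iWAT and reached down to 1.17 in pgWAT.

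**Figure D3:**
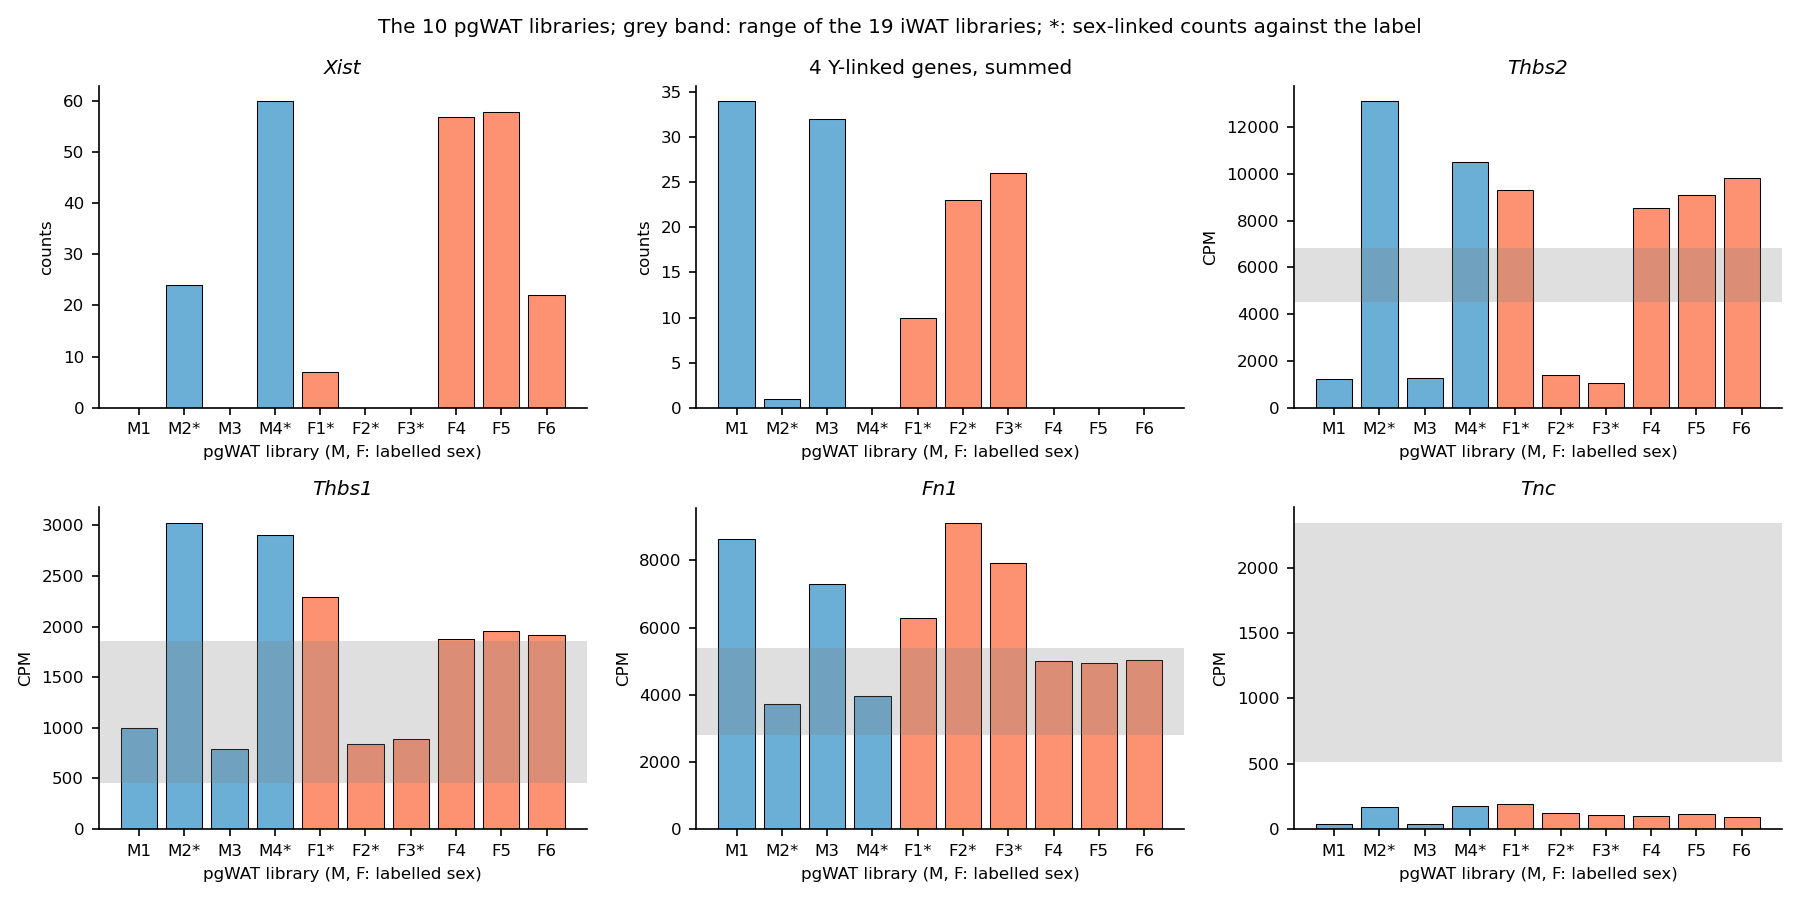
The 10 pgWAT libraries by labelled sex and replicate number, with Xist and summed Y-linked counts and the CPM of Thbs2, Thbs1, Fn1 and Tnc, beside the range of the 19 iWAT libraries (grey). Libraries M1, M3, F2 and F3 carry Y-linked counts without Xist, lie below the iWAT range for Thbs2 and above it for Fn1, and Tnc is below the iWAT range in all 10.

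Thy1 and Tnc did not divide pgWAT in the same way. Male-labelled libraries 1 and 3 had the lowest Thy1 (279 and 317 CPM) and Tnc (39.1 and 38.4 CPM), while female-labelled 2 and 3, with Y-linked counts as well, held 499 and 496 CPM of Thy1 and 123 and 111 CPM of Tnc. Svep1 was highest in female-labelled 2 and 3 (538 and 532 CPM). Plate position differs between these pairs, since female-labelled 1, 2 and 3 all came from column 10 and male-labelled 1 and 3 from columns 8 and 7. Immune markers moved with the division in Thbs2. The leukocyte sum was 17.8 to 64.0 CPM in the 4 libraries lowest in Thbs2 and 6.66 to 15.6 CPM in the other 6, with Cd3e and Cd3d at 0 in all 10. The macrophage sum was 323 to 756 CPM against 92.1 to 229 CPM, with Cd163 at 0 in every female-labelled library, and the smooth muscle sum 1370 to 1939 CPM against 2209 to 3206 CPM. Their part in the levels of Thbs1, Thbs2 and Fn1 was not tested.

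Thbs2 in pgWAT lay above iWAT in plate column 9, below it in column 7 and on both sides of it in columns 8 and 10. In column 10 the pgWAT libraries held 1045 to 9322 CPM and the 1 iWAT library 6113 CPM. The male-labelled libraries of columns 7 and 8 held 1260 and 1220 CPM. In column 8 alone the female-labelled comparison gave 0.87 on the log2 scale, where 14% of all genes were called. In column 9 alone, the male-labelled comparison set 3 male iWAT libraries against male-labelled pgWAT 2 and 4, both with Xist and at most 1 Y-linked count, and gave 1.24, where 23.2% of all genes were called. Column 9 also turned the male-labelled depot difference of Thy1 to 0.07 and of Lrrc15 to 0.34, neither called.

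The related families and receptors held 58 genes, of which 46 could be tested, and 27 were called higher and 10 lower in pgWAT, beside 20.1% and 17.9% of all genes, with a median log2 fold change of 0.54. Of the fibulins, 4 of 5 tested were higher, among them Fbln7 (2.05 ± 0.30), the elastic fibre protein Fbln5 (1.70 ± 0.13) and Fbln2 (0.86 ± 0.08), while Efemp1, fibulin 3, was lower (-1.14 ± 0.28). Of the CCN family of secreted connective tissue regulators 4 of 5 tested were higher, led by Ccn3 (1.82 ± 0.30), Ccn2 (1.39 ± 0.18) and Ccn1 (1.15 ± 0.18). Of the remaining thrombospondins only Thbs3 could be tested (0.62 ± 0.18, higher). In the families of the tenascins and of periostin, Tnxb was higher (1.54 ± 0.20) and the periostin paralogue Tgfbi lower (-1.58 ± 0.30). Tnxb thus went against Tnc, and Tgfbi against Postn. Of the SPARC family and osteopontin 3 of 4 tested were higher, Sparcl1 (2.60 ± 0.21), Smoc2 (2.48 ± 0.30) and Sparc (0.41 ± 0.07), and osteopontin (Spp1) was lower (-0.68 ± 0.15).

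Of 12 fibroblast activation genes 7 were higher and 2 lower in pgWAT, beside the same 20.1% and 17.9% of all genes. This list shares Acta2 and Tagln with the smooth muscle markers above. Itga11, the collagen-binding integrin chain of fibroblasts, had the largest difference (4.40 ± 0.28), from 0 to 16.7 CPM in iWAT to 76.6 to 189 CPM in pgWAT. The collagen cross-linking enzyme Lox (1.58 ± 0.15) and Tagln (1.52 ± 0.18), which encodes the actin-binding protein transgelin, were higher. Cthrc1 (-1.29 ± 0.21), a secreted protein of injured tissue, and S100a4 (-1.24 ± 0.22) were lower, as were Tnc and Lrrc15 of the 10 genes. Among receptors, 6 of 12 were higher, with Sdc4 (1.76 ± 0.14), Itgb5 (1.75 ± 0.16) and the tenascin and Svep1 receptor chain Itga9 (1.60 ± 0.22), and 3 were lower, Itga8 (-1.48 ± 0.48), Itgb3 (-1.14 ± 0.19) and the fibronectin receptor chain Itga5 (-0.48 ± 0.09). Of the thrombospondin 1 receptors, named here after their values were seen, Cd36 was called higher (0.81 ± 0.29), and Cd47 was not called (-0.14 ± 0.14). Of the TGF-beta ligands and latency proteins Ltbp2 was higher (2.18 ± 0.29), and Ltbp1 (-1.01 ± 0.16) and Tgfb3 (-0.57 ± 0.12) were lower.

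**Figure D4:**
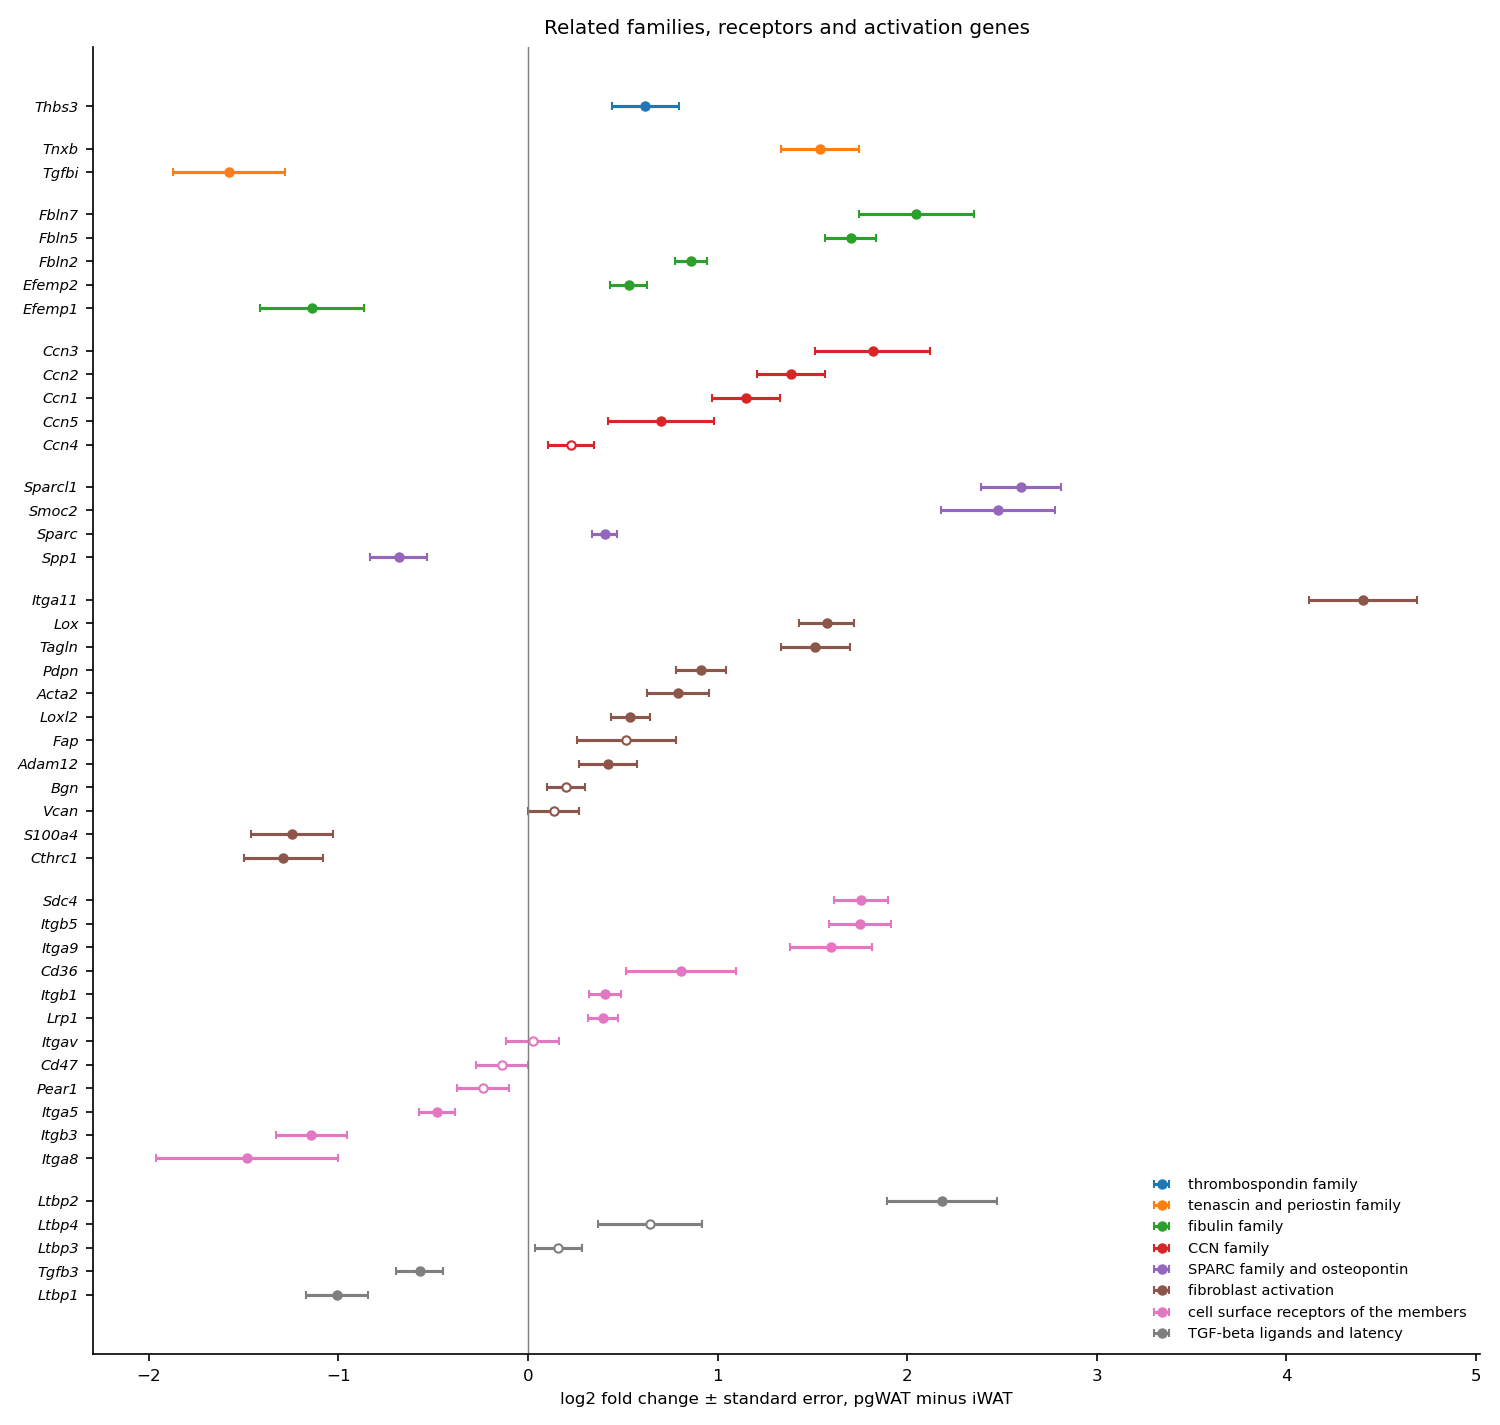
Log2 fold change ± SE, pgWAT minus iWAT, of the 46 tested genes of related families, receptors and activation lists, with filled points at an FDR below 0.05. Most points lie right of 0, with Itga11 farthest, and each of the tenascin, fibulin, osteopontin, activation, receptor and TGF-beta lists also has genes to the left.

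Between male and female iWAT, 7 of these 46 genes were called lower in males, beside the 2.13% of all genes, and 2 higher, beside 1.08%. Named here after their values were seen, the lower ones were Tagln (-1.23 ± 0.23), Ltbp2 (-1.36 ± 0.39), Acta2 (-1.01 ± 0.20), Cthrc1 (-0.94 ± 0.21), Ccn4 (-0.68 ± 0.14), Loxl2 (-0.64 ± 0.12) and Fbln2 (-0.41 ± 0.10). S100a4 (1.15 ± 0.24) and the scavenger receptor Cd36 (1.29 ± 0.35) were higher in males. Cthrc1 was the only gene of these lists called lower both in pgWAT and in male iWAT, as were Tnc, Lrrc15 and Thy1.

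Covariation among wells of the same labelled group was described by Pearson's r of log2 CPM after removing each group's mean, over 29 libraries that share these means and the plate. Both labelled pgWAT groups hold libraries with Xist counts and libraries without, so r over 29 libraries also carries that division. The most similar other genes were ranked by that r. Among the 10 genes in the 19 iWAT libraries, Tnc and Thbs1 went together most (r = 0.84, Spearman's rho = 0.70, and r = 0.61 without the 2 libraries farthest from the median of Tnc). Lsp1 and Fn1 (r = 0.74, rho = 0.75, and 0.70 without 2) followed. The most similar other genes among 5268 were Maged2 for Lsp1 (r = 0.89 over 29 libraries and 0.94 over iWAT), Il4ra for Thy1 (0.89 and 0.58), Prss23 for Thbs1 (0.89 and 0.75) and Ctsd for Fn1 (0.89 and 0.72). For Tnc they were Lbh (0.82 and 0.32), for Postn Vmp1 (0.74 and 0.60), for Fbln1 Tmem106b (0.73 and 0.74), for Svep1 Slc1a5 (0.73 and 0.77) and for Lrrc15 Apoe (0.62 and 0.55). For Thbs2 it was Ptpn5, with r = 0.97 over 29 libraries and -0.08 within iWAT, so that this likeness lay in the divided pgWAT libraries.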

How the data were processed

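Bulk Smart-seq3 RNA-seq was analysed from 29 libraries of cultured SVF. Per the labels and methods, the authors trimmed adapters with NGmerge and quantified reads on GRCm39 and Gencode vM32 with Salmon (1.9.0), STAR (2.7.10a) serving quality control, and removed libraries with few detected genes. They deposited estimated counts per gene, not normalized, with reads with and without molecular identifiers together, so a floor of 3 counts would cover counting error only. Counts were rounded. Symbols were found for 91.35% of the 56953 features. Groups came from the labels. edgeR (4.0.16) was run with TMM factors, filterByExpr and a quasi-likelihood F test on a means model of the 4 groups over all libraries, with Benjamini-Hochberg adjustment (FDR below 0.05), after a check on simulated data. No gene was tested apart from this fit. Alternatives were RLE factors, library totals, no filter, DESeq2 (1.42.0), limma-voom (limma 3.58.1), plate column, single columns, single depots, the 5 doubtful libraries and each library left out. Totals ranged from 315316 to 1102234, from 12200 to 15394 detected features. Gene length is the exon union of GENCODE vM21 (GRCm38), as no GRCm39 annotation was used here. The 10 genes and all lists were chosen with earlier results of these data known. From the wider lists the text names at most 3 called genes per direction with the largest depot difference (Cd36, Cd47 and the genes of the iWAT sex contrast were added after their values were seen), and for each of the 10 the gene or genes most correlated with it, of those with a mean log2 CPM of at least 5.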

Additional observations from a re-analysis of the deposited data

Results flagged for a closer look

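In 10 of 40 combinations of gene and group, a library stood apart by Dixon's criterion. Chance marks about 1 in 20 groups if they are independent. These combinations are not, since several of them fall on the same library. The share over all genes was not computed, so the count is a description only. Male iWAT library 1 held the highest Postn of its group (191 CPM, the others 46.5 to 81.4), Lrrc15 (25.3 CPM, the others 0 to 10.4), Tnc (826 CPM, the others 510 to 675) and Thbs2 (6834 CPM, the others 4552 to 5309). Female iWAT library 9 held the highest Tnc (2342 CPM, the others 1013 to 1579) and Thbs1 (1859 CPM, the others 451 to 1135), and female iWAT library 3 the lowest Fn1 (2801 CPM, the others 3505 to 4199). Female-labelled pgWAT library 1, the one with both Xist and Y-linked counts, held the highest Tnc (190 CPM, the others 90.0 to 123) and Thy1 (718 CPM, the others 475 to 526.5). Male-labelled pgWAT library 1 held the highest Svep1 (352 CPM, the others 239 to 252).

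The sex contrast of pgWAT differed from that of iWAT, by the edgeR interaction term over all genes, for Postn by 2.49, for Lrrc15 by 4.12 and for Lsp1 by 1.55 on the log2 scale. Each rests on pgWAT labels that sex-linked transcripts put in doubt, and that of Lrrc15 also on 21 counts in all of pgWAT.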

How the results depend on the processing

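The 8 depot calls and the 5 iWAT sex calls were kept under RLE factors, library totals, no filter on low counts, DESeq2 and limma-voom. Members called between the labelled sexes of pgWAT were 0, and 1 without the filter, with DESeq2 and with limma-voom, and 5 without the 5 doubtful libraries. Over all genes that was 1 of 8853, 59 of 26512 without the filter, and 6 of 8853 with DESeq2 and with limma-voom. Without the 5 doubtful libraries it was 536 of 9516. Members called for the interaction were 3, 5 without the filter, 4 with DESeq2, 2 with limma-voom, where Lrrc15 was lost, and 2 without the 5 doubtful libraries. Over all genes calls were 16 of 8853, 73 of 26512 without the filter, 37 of 8853 with DESeq2 and 2 of 8853 with limma-voom. Without the 5 doubtful libraries they were 244 of 9516. Wider-list genes lower in male iWAT were 7, beside 189 of all 8853 genes, and 13 without the filter, beside 319 of 26512. The cause of these changes was not tested.

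Of 469 comparisons of a gene's log2 fold change with an alternative, 415 kept direction and side of the threshold, 16 passed it newly, 8 lost it and 30 reversed. Without the 5 libraries, reversals were Lsp1 (-0.20) and Thbs2 (-0.64) between depots, Thbs2 (-2.06) between depots in males, Postn (-0.79), Lsp1 (-0.11), Svep1 (0.11), Thbs1 (-1.13) and Fn1 (0.65) between the sexes of pgWAT, and Tnc (-0.21), Thbs1 (-0.60), Thbs2 (-2.84) and Fn1 (0.49) in the interaction. With limma-voom Thbs2 reversed between depots (-0.28), in males (-0.39), in females (-0.17) and in the interaction (-0.22). With plate column as a factor Thbs2 reversed between depots in males (-0.0773) and in the interaction (-0.62), and Lsp1 (-0.19), Svep1 (0.29), Thbs1 (-0.65) and Fn1 (0.13) between the sexes of pgWAT. In column 9 alone the male depot differences of Lrrc15 (0.34) and Thy1 (0.0701) reversed. Between the sexes of pgWAT, where both were near 0, Thy1 reversed with library totals (0.0015), without the filter (0.0274) and in pgWAT alone (0.0068), and so did Thbs2 (0.0055, 0.0284, 0.0127).

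With each library left out in turn, the number of called genes was 8 between depots, 5 to 8 within labelled males, 7 to 8 within labelled females, 5 between the sexes of iWAT, 0 between those of pgWAT and 1 to 4 for the interaction. Of the 8786 to 9200 genes tested, calls ran from 3020 to 3380 between depots. They ran from 1184 to 1905 within labelled males and 2048 to 2465 within labelled females. For sex they ran from 206 to 332 in iWAT and 0 to 9 in pgWAT, and for the interaction from 3 to 31. The interaction calls of Lrrc15 and Lsp1 were lost without male-labelled pgWAT library 2 or 4. Ranges that crossed 0 were Lsp1 between depots (-0.033 to 0.13), Thbs2 between depots in males (-0.22 to 0.71), Thbs2 in the interaction (-0.52 to 0.42), and, between the sexes of pgWAT, Tnc (-0.58 to 0.10), Thy1 (-0.27 to 0.21), Lsp1 (-0.16 to 0.17), Thbs1 (-0.0565 to 0.50), Thbs2 (-0.59 to 0.35) and Fn1 (-0.36 to 0.0477). No paired analysis was possible because replicate numbers were given in accession order and pair nothing. Depth limits Lrrc15 in pgWAT, with at most 5 counts in a library.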
